A study of Solanum lycopersicum with 9 samples.

Results

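Turning tomato fruit, in which colour has begun to spread over the skin, was compared with fruit at breaker, the stage at which the first break in green colour appears. The comparison rests on the 2 arrays labelled turning and the 2 labelled breaker, 4 of the 9 arrays of the series, which also holds 2 pink and 3 red ripe arrays. Every array was hybridised with total RNA from wild-type plants of the cultivar Ailsa Craig, grown hydroponically in an open greenhouse, and the fruits were staged by the colour of the skin. No treatment was applied, so the stage was the only labelled difference. The labels name pericarp and the PureLink kit, whereas the methods speak of fruit tissue, of abscission zones in one sentence, and of the RNeasy kit. RNA was read on Affymetrix TomGene ST 1.1 strips, on which a probe set measures each transcript cluster, and the values are log2 RMA signals. Replicates are independent biological samples per the methods. With 2 arrays each at turning and breaker, the p-values measure only a spread between samples, which was pooled over all 9 arrays.

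Ripening of tomato is started and kept up by ethylene, which the fruit makes in rising amounts once it passes the breaker stage. Chlorophyll is lost while carotenoids are made, chloroplasts become chromoplasts, cell walls are loosened by hydrolases and expansins, and sugars, acids and phenolic compounds are remodelled. Turning is an early step of this course, at which most of the skin is still not red.

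Of the 67795 probe sets, 23194 carry 1 gene symbol and stand for 21326 genes, each represented below by its probe set with the highest mean over the 9 arrays. Of these genes 20429 carry a LOC identifier as their symbol, some with a name among the RefSeq synonyms, and 897 have another symbol. Calls were made in limma where the adjusted p was under 0.05 and the change was more than 2-fold, with 1 mean per stage fitted over all 9 arrays. At turning 287 of the 21326 genes (1.35%) were higher and 3581 (16.8%) were lower than at breaker, or 12.5 falls for each rise. This lean was not shared by the 44431 probe sets without a symbol, of which 693 (1.56%) were higher and 772 (1.74%) were lower. At any fold 596 genes (2.79%) were higher and 4750 (22.3%) were lower, and these shares are the background for the gene lists described below. The turning and breaker arrays did not overlap for any called gene, in either direction. The thresholds of the call largely ensure this, so it adds no separate evidence. The rises were smaller: their median log2 difference was 1.37, and 13 of them exceeded 8-fold, whereas the falls had a median of -1.58 and 252 of them exceeded 8-fold.

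**Figure D1:**
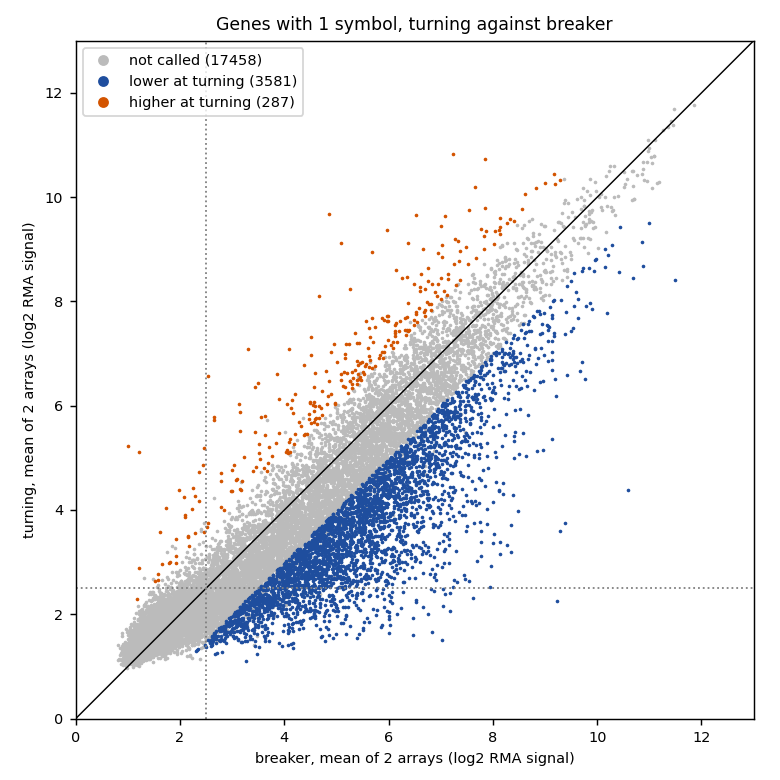
Mean log2 RMA signal of 2 turning arrays (vertical axis) against that of 2 breaker arrays (horizontal axis) for 21326 genes with 1 symbol. The 3581 genes lower at turning (blue) form a broad band under the diagonal and the 287 higher genes (orange) a thin one above it, and the dotted lines mark a log2 signal of 2.5.

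A log2 signal under 2.5 was marked as near background, since the deposited values have no detection call. Among the rises 31 (10.8%) had a lower stage mean, that of breaker, under this mark and 256 were measured on both sides. Among the falls 740 (20.7%) had a turning mean under the mark and 2841 were measured on both sides. The size of a change that ends under the mark is at best a lower bound. In 9652 genes both stage means lay under the mark.

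The share of genes called depended on signal level. Set by the level at red ripe, a stage outside this comparison, 0.302% of the 9927 genes under 2.5 were higher at turning and 2.20% were lower. Among the 1936 genes between 6 and 7 the shares were 3.10% higher and 37.5% lower, and among the 77 genes over 10 they were 2.60% and 18.2%. Falls outnumbered rises in each of the bins. The median log2 difference was 0.085 in the bin under 2.5 and lay between -0.605 and -0.795 in the bins from 4 to 8. For a list of well expressed genes the range of those bins is a closer guide than the median of all genes. It is a rough guide only, since 3032 of the 3581 falls were also lower at turning than at red ripe, which sets the bins.

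**Figure D2:**
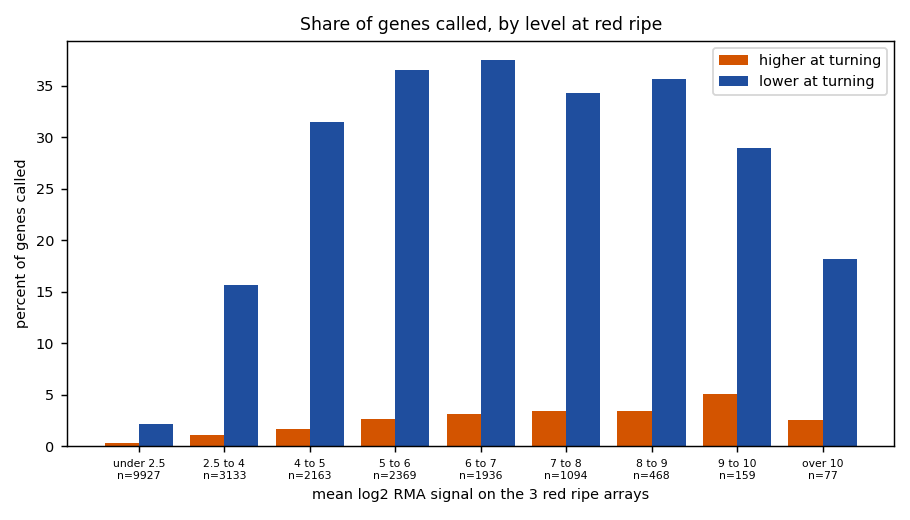
Percent of genes called higher (orange) and lower (blue) at turning than at breaker, by mean log2 RMA signal on the 3 red ripe arrays, with the number of genes under each bin. The share of lower genes is 2.20% in the dimmest bin, 37.5% between 6 and 7 and 18.2% in the brightest.

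The arrays themselves differed in ways that run with the stage. The median signal over the 21326 genes was 2.33 and 2.32 on the turning arrays, against 2.77 and 2.82 on the breaker arrays, and the upper decile was 5.89 and 6.12 at turning, against 6.58 and 6.59 at breaker. The turning arrays correlated with each other across probe sets at r = 0.939, against 0.988 for the breaker arrays. Of all called genes 92.6% were lower, and this share was 72.8% after quantile normalization and 75.2% after cyclic loess normalization of the deposited values, with 823 and 713 rises and 2204 and 2165 falls. The median log2 difference of the genes was -0.12 as deposited and -0.28 once the medians of the arrays had been set equal. The part of these array differences in the excess of falls was not tested. In bulk RNA, fewer cells of a type and less RNA per cell cannot be told apart.

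Heat shock proteins and chaperones, which keep other proteins folded and soluble, were the listed group with the most rises. Only 22 of the 287 rises had a symbol other than a LOC identifier, so the groups among most rises are not known. Of 14 members listed by symbol or synonym 8 were higher and none was lower at any fold, and the median log2 difference was 1.36. Outside this list, LOC101256054, which the study's supplement describes as a calmodulin-binding heat-shock protein, had a log2 difference of -2.375. The endoplasmic reticulum small heat shock protein er-sHSP had signals of 9.75 and 9.62 at turning, against 5.40 and 4.31 at breaker. The rise was 4.83 in log2 units (SE 0.31, adjusted p = 5.09e-05 in limma), the largest rise of all genes with 1 symbol. MTSHP, the small heat shock protein of mitochondria, read 10.78 and 10.69 at turning and 8.22 and 7.48 at breaker. HSP21, the chloroplast small heat shock protein, read 9.07 and 9.18 at turning and 6.34 and 6.42 at breaker. Small heat shock proteins of 3 cellular compartments were thus above breaker on both turning arrays, by 4.83, 2.88 and 2.75 on the log2 scale.

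HSFA3, a heat stress transcription factor, had signals of 6.79 and 7.17 at turning, against 4.68 and 4.33 at breaker, and vis1, a small heat shock protein of ripening fruit linked to juice viscosity, had 9.53 and 9.37 against 7.05 and 6.94. The increases were 2.48 and 2.46 on the log2 scale (adjusted p = 1.04e-04 and 4.33e-05 in limma). The other members past the test were the chloroplast co-chaperonin Cpn21 with a log2 difference of 1.42, HSP70 with 1.35 and Hsp90-1 with 0.89. The 6 members not past the test were hsc70, HSP17.4, DNAJ, HSC80, hsc70.3 and BIP, with log2 differences of 0.02 to 1.37. The largest of these was that of hsc70, whose turning arrays differed widely, with signals of 4.15 and 2.41 at turning and 2.04 and 1.78 at breaker. All 8 calls held in each alternative scaling and with each array left out, though not in the methods' test with adjusted p-values, in which nearly all calls were lost. The pink means of the 5 genes with the largest rises were 6.83 to 10.1 and their red ripe means 5.15 to 8.57, against turning means of 6.98 to 10.7.

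**Figure D3:**
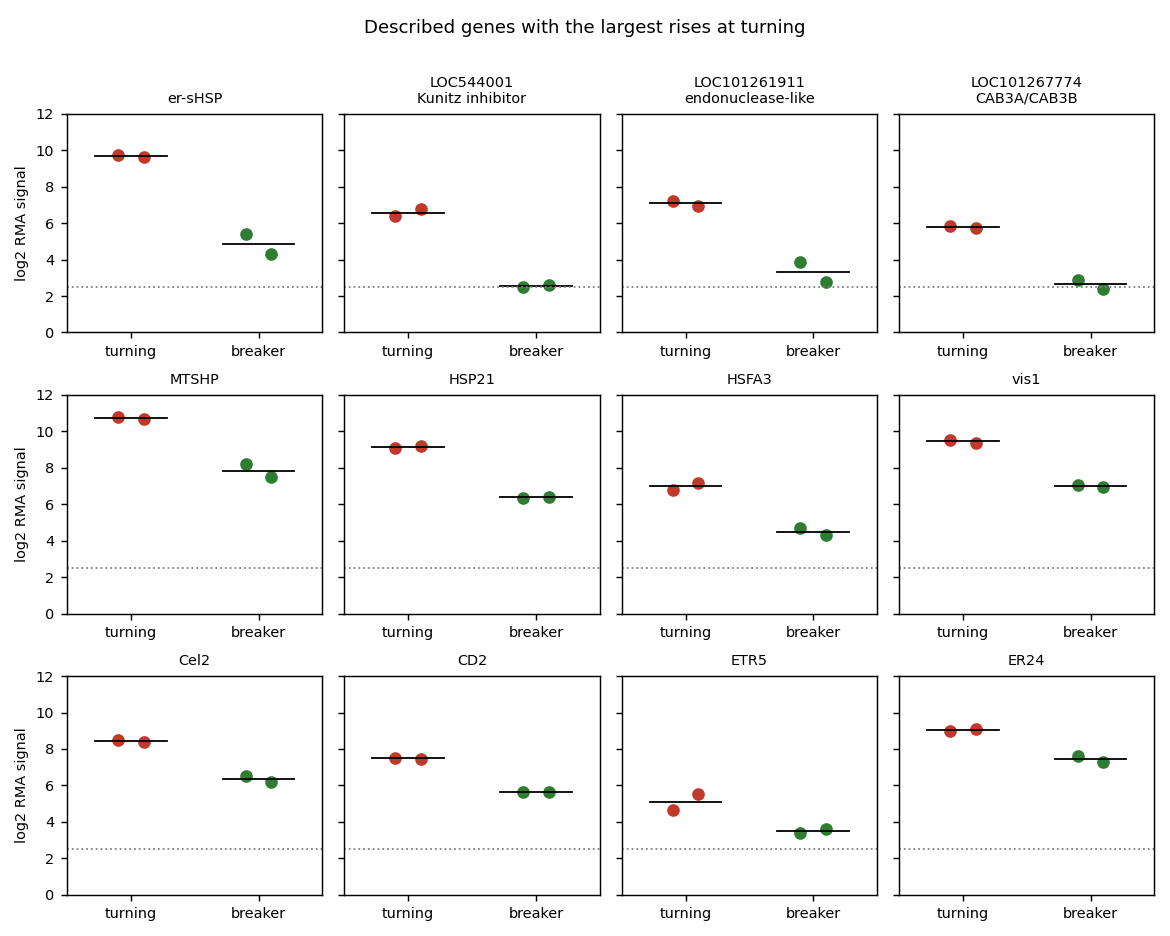
Log2 RMA signal of the 12 described genes with the largest rises that were measured on both sides, on 2 turning (red) and 2 breaker (green) arrays; bars are means and the dotted line marks 2.5. Both turning points lie above both breaker points in every panel, as the choice of these genes required. The means differ by 4.83 on the log2 scale for er-sHSP and by 1.56 for ER24.

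Outside the heat shock group the described genes with the largest rises had diverse functions. LOC544001, described as a Kunitz trypsin inhibitor, a class of proteins that block proteases, had signals of 6.37 and 6.76 at turning, against 2.47 and 2.60 at breaker. LOC101261911, described as an EME1B-like crossover junction endonuclease, read 7.22 and 6.94 at turning and 3.84 and 2.75 at breaker. LOC101267774, which RefSeq also lists as CAB3A and CAB3B and which encodes a chlorophyll a/b binding protein, read 5.82 and 5.75 at turning and 2.89 and 2.41 at breaker. These genes rose by 4.03, 3.79 and 3.13 on the log2 scale (adjusted p = 3.37e-05, 4.78e-04 and 7.89e-05 in limma), with breaker means of 2.54 to 3.30.

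The endoglucanase Cel2, an enzyme of cell wall loosening, read 8.51 and 8.41 at turning and 6.50 and 6.21 at breaker, and it was higher still at pink (10.2) and red ripe (10.6). CD2, a homeodomain factor required for cutin deposition, read 7.53 and 7.45 at turning and 5.64 and 5.62 at breaker, and it stood at 5.68 at pink and at 4.09 at red ripe. Cel2 and CD2 rose by 2.11 and 1.86 on the log2 scale (adjusted p = 2.39e-04 and 1.14e-04 in limma). The ethylene receptor ETR5 was less certain, with 4.67 and 5.52 at turning and 3.41 and 3.62 at breaker (adjusted p = 0.0061 in limma), and its call was lost without breaker array 1 (adjusted p = 0.0513). ER24, a transcriptional co-activator of the MBF1 type, read 8.98 and 9.10 at turning and 7.64 and 7.31 at breaker, a rise of 1.56, while its relative MBF1 had a log2 difference of -0.61 that did not pass the test.

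A further 3 described rises began under the mark. LOC101250534, described as a proline-rich protein, read 5.29 and 5.15 at turning and 0.98 and 1.04 at breaker, which is at least 2.72 on the log2 scale when breaker is set at the mark. LOC101264046, described as cinnamoyl-CoA reductase-like, a type of enzyme of lignin precursor synthesis, read 4.49 and 5.75 at turning and 1.26 and 1.17 at breaker, a rise of at least 2.62. LOC100736500, known as LeGRP1, read 3.70 and 4.84 at turning and 2.25 and 2.34 at breaker, a rise of at least 1.77 whose call was lost without either breaker array. Among genes picked after their values were seen, BI-1, a Bax inhibitor that restrains cell death, rose by 1.39 and LOC101055525, the plastid division gene ARC6, by 1.15.

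The falls were larger and more numerous. Of the 3581 falls 3032 also passed the test as lower at turning than at red ripe, and 404 as lower than at pink. Of the 287 rises 219 also passed as higher than at red ripe, and 48 as higher than at pink. These comparisons share the turning arrays, so the counts are not independent of the calls. The described gene with the largest fall measured on both sides was LOC101261467, a nodulin family protein, with signals of 4.53 and 4.22 at turning, against 10.53 and 10.65 at breaker. It fell by 6.21 in log2 units (SE 0.18, adjusted p = 1.03e-05 in limma), and stood at 8.15 at pink and 9.11 at red ripe. The description of this gene gives no function in fruit.

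Among the 12 described genes with the largest falls measured on both sides, 4 were transporters. All 4 owe their description to the study's supplement, which lists top changed genes of these samples. The count therefore does not bear on transporters as a class. LOC101249191, a multidrug and toxin extrusion (MATE) transporter that exports small molecules, read 3.42 and 4.08 at turning and 9.24 and 9.51 at breaker. LOC101268078, of the major facilitator superfamily, read 2.45 and 2.90 at turning and 7.58 and 7.34 at breaker. LOC101263374, a purine permease, read 3.80 and 3.27 at turning and 8.34 and 7.71 at breaker. LOC101249334, of the solute carrier family 35, read 3.39 and 2.15 at turning and 6.61 and 7.15 at breaker, and the 4 falls were 5.62, 4.79, 4.49 and 4.11 on the log2 scale. The purine permease and the solute carrier were also low at pink (3.25 and 2.26) and red ripe (2.99 and 2.16), whereas the MATE transporter was low at pink (4.04) and high at red ripe (8.53).

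Another 3 of the 12 encode a signalling protein or a transcription factor. LOC101250066, a guanine nucleotide exchange factor that activates Rop GTPases of plants, read 2.44 and 2.60 at turning and 7.66 and 8.21 at breaker. The mitogen-activated protein kinase MAPK8 read 2.61 and 2.45 at turning and 6.87 and 7.60 at breaker. LOC101263542, listed in RefSeq as SlWRKY23 and as SlWRKY4, a transcription factor of the WRKY family, read 2.69 and 2.74 at turning and 6.68 and 7.05 at breaker. The falls were 5.42, 4.71 and 4.15 on the log2 scale (adjusted p = 2.78e-05, 2.84e-05 and 2.90e-05 in limma), and each turning mean lay within 0.3 of the mark.

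The glucosyltransferase twi1, first known as a wound-induced gene, read 2.53 and 4.14 at turning and 9.11 and 7.44 at breaker, so that both pairs of replicates differed by more than 1.5 on the log2 scale, and it fell by 4.94 (standard error 0.61). ER5, which encodes a protein like those of late embryogenesis and responds to ethylene, read 2.71 and 2.53 at turning and 7.97 and 6.64 at breaker. The endoglucanase Cel8 read 3.60 and 3.19 at turning and 7.44 and 8.11 at breaker, opposite in direction to its relative Cel2. Cel8 fell by 4.38 and was also low at pink (2.00) and red ripe (3.77), whereas ER5 fell by 4.68 and stood at 8.99 at red ripe.

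**Figure D4:**
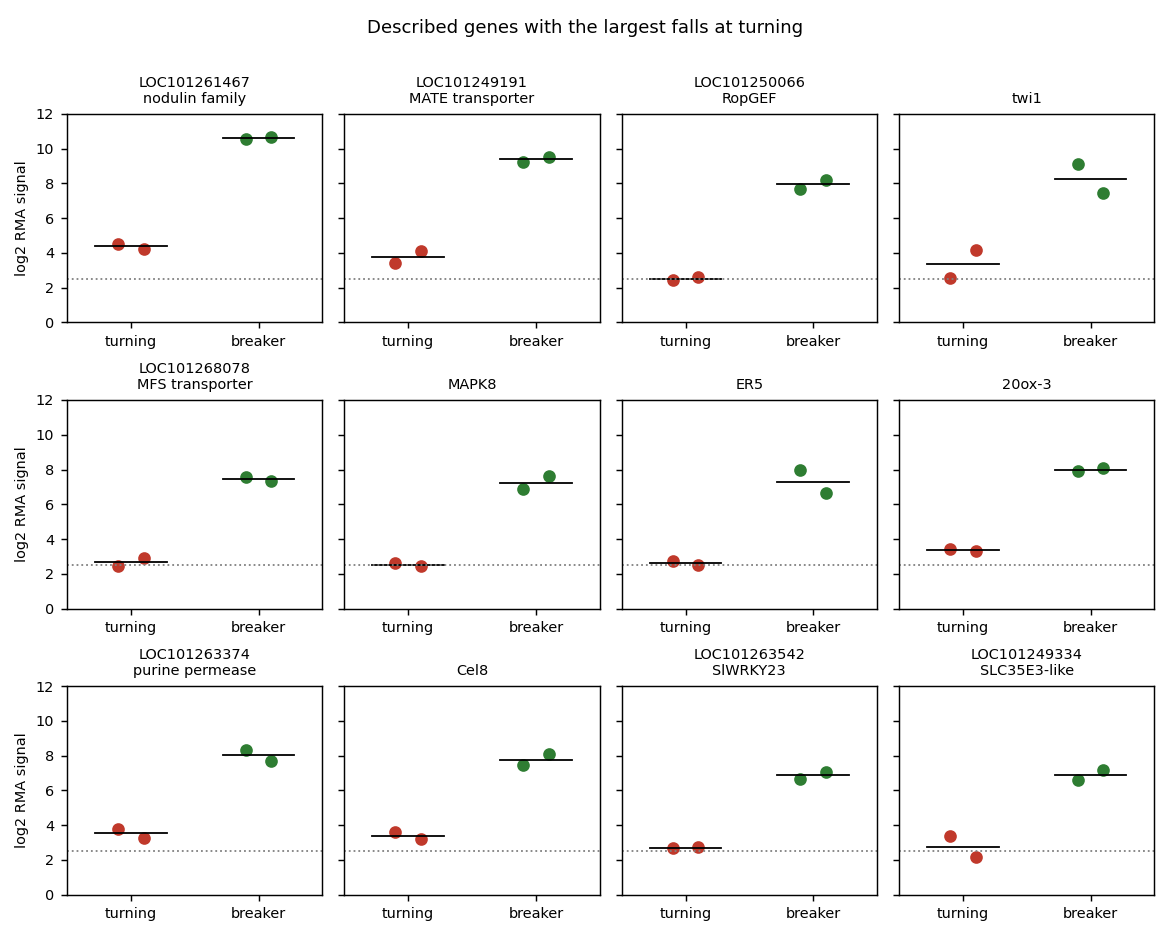
Log2 RMA signal of the 12 described genes with the largest falls that were measured on both sides, on 2 turning (red) and 2 breaker (green) arrays; bars are means and the dotted line marks 2.5. All turning points lie below all breaker points, which the choice of these genes required within each panel. The turning means are between 2.5 and 4.4.

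A further 6 described falls ended under the mark. The arabinogalactan protein LOC101252504, of a family of cell surface proteoglycans, read 2.29 and 2.22 at turning and 8.65 and 9.82 at breaker, a fall of at least 6.74 on the log2 scale (107-fold) when turning is set at the mark. LOC101249043, described only by an Arabidopsis homologue, read 1.57 and 1.43 at turning and 7.09 and 6.94 at breaker. LOC101254595, a carrier like those of organic cations and carnitine, read 2.56 and 2.22 at turning and 7.41 and 6.76 at breaker, and these falls were at least 22.9-fold and 24.0-fold. The other bounded falls were at least 12.6-fold for the ethylene response factor ERF4, 10.2-fold for CYP85A1, an oxidase of brassinosteroid synthesis, and 9.58-fold for tXET-B1, a xyloglucan-modifying enzyme.

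The changes were counted over gene lists, which were formed from symbols and RefSeq synonyms. LOC genes without such a name are missing from them, so a list is not a whole family. The 47 lists held 461 genes, of which 24 passed the test as higher and 143 as lower. More members were lower than higher in 38 lists, more were higher in 4, and 2 had equal counts above 0. The 4 with more rises were the heat shock group, the pair of co-activators, the green tissue markers and the only mitochondrion-encoded gene, rrn5, whose signals were 10.4 and 10.3 at turning and 9.25 and 9.47 at breaker and whose call was lost without breaker array 1. The lead of the green tissue markers, 2 higher against 1 lower, rested on LOC101264286, whose means are both under the mark and whose call was lost in 11 of 17 alternatives. The lists of MAP kinases, 14-3-3 proteins, the GABA shunt, hexose phosphorylation, brassinosteroid, light, ascorbate and glutathione, ion transport, the cell cycle, Polycomb and RNA silencing, and ethylene and ripening clones were formed after the values were seen. Counts of small lists moved with single arrays, above all those of breaker. Only some of the changes by more than 1.5 times are given, so counts without such a remark are not thereby stable. Of the members read out below, IAA6, SlCKX7, ER43, MPK3, EXP1, lin5, CHS1 and CAB4 had turning means under the mark. The sizes of their falls are at best lower bounds.

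**Figure D5:**
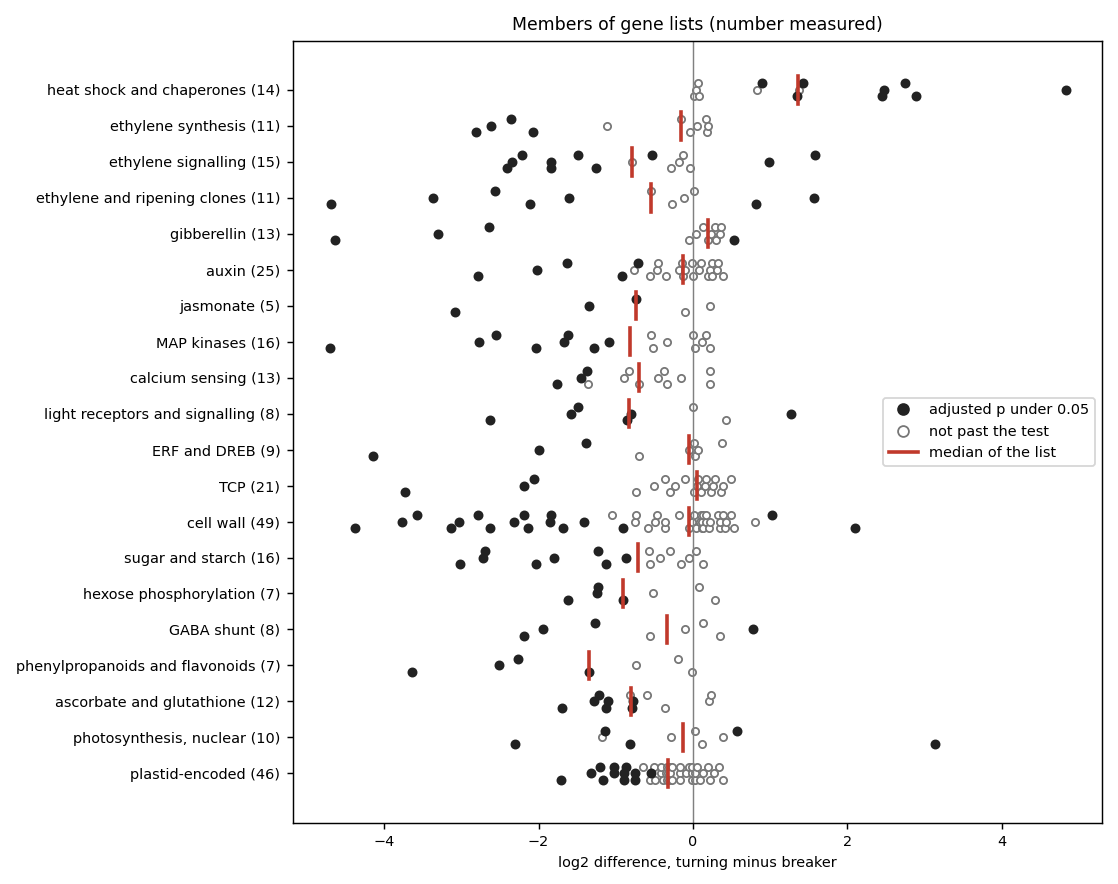
Log2 difference, turning minus breaker, of the members of 20 gene lists, with the number measured in brackets; filled points passed the test (adjusted p under 0.05), open points did not, and the red bar is the median of the list. Heat shock members lie to the right of 0, with a median of 1.36, while the passed members of most other lists lie to the left.

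Most of the listed genes of gibberellin, auxin, cytokinin and brassinosteroid were near background at both stages, and the shares that were lower were near or under the 22.3% of all genes. Of 13 gibberellin genes 3 were lower and 1 was higher, with a median log2 difference of 0.20, and 9 had both means under the mark. The gibberellin 20-oxidase 20ox-3, which makes precursors of active gibberellins, read 3.43 and 3.29 at turning and 7.91 and 8.08 at breaker. GA2ox2, which inactivates gibberellins, read 2.83 and 3.16 at turning and 7.09 and 5.52 at breaker. The DELLA repressor GAI read 2.82 and 2.63 at turning and 5.20 and 5.54 at breaker. These 3 genes fell by 4.63, 3.31 and 2.65 on the log2 scale (adjusted p = 1.10e-05, 0.00194 and 7.07e-05 in limma), and the receptor gene GID1 was higher by 0.53, a call that was lost in 15 of 17 alternatives.

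Of 25 auxin genes 5 were lower, none was higher, and 16 had both means under the mark. The Aux/IAA repressor IAA6 read 2.04 and 1.91 at turning and 4.85 and 4.68 at breaker, and the auxin response factor ARF1 read 4.19 and 4.64 at turning and 6.47 and 6.39 at breaker. The other 3 were less certain: ARF3 lost its call in 13 of 17 alternatives, ARF4 without either breaker array and ARF13 without breaker array 2, so that 3 auxin genes were lower without breaker array 1 and 2 without breaker array 2. The 9 genes of auxin transport (PIN) had log2 differences of -0.35 to 0.39 and none passed the test, all with both means under the mark. Of 5 jasmonate genes 3 were lower, among them opr3, the oxophytodienoate reductase of jasmonate synthesis, with 3.09 and 2.97 at turning and 5.95 and 6.27 at breaker. Of 9 cytokinin genes only the oxidase SlCKX7 passed, with 1.79 and 1.73 at turning and 3.61 and 4.56 at breaker. Of 5 brassinosteroid genes CYP85A1 alone passed, and of the pair of abscisic acid genes neither did.

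Of 11 ethylene synthesis genes 4 were lower and none was higher, and of 15 ethylene signalling genes 8 were lower and 2 were higher. The 8 include GR, with a log2 difference of -1.25, which was matched by its symbol alone. Whether GR here is a gene of ethylene signalling is not certain. Without breaker array 1 the signalling counts were 5 lower and 1 higher, without breaker array 2 they were 5 and 2, and 5 were lower after quantile and after cyclic loess normalization, where EIL1, CTR3 and EBF1 lost their calls. The receptors moved in opposite directions. ETR1 read 8.04 and 8.12 at turning and 7.07 and 7.12 at breaker, whereas ETR6 read 3.78 and 4.52 at turning and 6.37 and 6.61 at breaker, log2 differences of 0.98 and -2.34 (adjusted p = 0.00288 and 4.25e-04 in limma). ETR2 differed by -0.04 and did not pass. The 11 genes first isolated as ethylene-responsive or ripening-related clones held 5 lower and 2 higher members (1 higher without breaker array 2). Besides ER5, they included DDTFR18, with 3.22 and 2.35 at turning and 6.18 and 6.14 at breaker, and ER43, with 1.53 and 2.38 at turning and 4.32 and 4.73 at breaker.

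MAP kinase cascades pass signals by phosphorylation. Of 16 MAP kinase genes 8 were lower and none was higher, and 5 were lower without breaker array 1. The median log2 difference was -0.81, close to that of genes at middle signal levels. MPK3 read 2.16 and 1.86 at turning and 4.65 and 4.48 at breaker, and MAPK4 read 3.11 and 3.21 at turning and 6.38 and 5.49 at breaker. MAPK6 read 6.44 and 6.05 at turning and 6.12 and 6.13 at breaker and did not pass. Under quantile and cyclic loess normalization 7 MAP kinase genes were lower, with 2 and 1 higher. Of 8 genes of 14-3-3 proteins, adaptors that bind phosphorylated partners, 3 were lower, led by TFT3 with 2.67 and 3.78 at turning and 5.58 and 5.97 at breaker. The calls of tft8 and tft9 were lost in 10 and 2 of 17 alternatives, and 1 gene of this list was lower without breaker array 2 and 5 without turning array 1. Of 13 genes of calcium sensors, their kinases and calcium pumps 3 were lower, the kinases CDPK2 and CIPK14 and the pump ACA10, with falls of 1.45, 1.76 and 1.37. The calls of ACA10 and CIPK14 were lost in 10 and 7 of 17 alternatives, and 1 gene of this list was lower under quantile and cyclic loess normalization, without breaker array 1 and without red ripe array 1. Outside the list, 6 LOC genes that the study's supplement links to calcium fell by 2.31 to 3.03. They are described as calmodulin-like, calcium-binding or calcium-linked kinase genes and, for LOC101256054, as a calmodulin-binding heat-shock protein. The study chose its supplement's genes on these samples, so these are no independent evidence of a direction.

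Of 8 genes of light perception and signalling 5 were lower and 1 was higher. The blue light receptor PHOT1 read 4.80 and 5.22 at turning and 7.33 and 7.96 at breaker, and PHOT2 fell to a turning mean of 2.12, under the mark. HY5, a bZIP factor that promotes light responses, read 4.77 and 5.29 at turning and 4.11 and 3.41 at breaker, a rise of 1.27 on the log2 scale (adjusted p = 0.0119 in limma) that was lost without breaker array 2. The repressor COP1 differed by less than the spread between replicates and did not pass. Without either breaker array 3 of these genes were lower. The lean of this list depended on scaling, with 2 lower and 3 higher after quantile normalization and 2 of each after cyclic loess.

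Among the listed genes of 7 transcription factor families none rose in the main fit. These are only the members with a symbol or synonym. Under quantile and cyclic loess normalization 1 ERF or DREB and 1 MYB gene were higher. For TCP and MYB genes the absence of rises also depended on single arrays. Of 9 ERF and DREB genes 3 were lower, of 8 WRKY genes 2 (1 without breaker array 1, either turning array or red ripe array 2), of 4 NAC genes 2, of 5 MADS genes 2 (4 without breaker array 1), of 7 GRAS genes 3, of 9 MYB genes 1 and of 21 TCP genes 3. JERF1 read 6.94 and 7.02 at turning and 9.03 and 8.93 at breaker, GRAS6 read 3.09 and 3.33 at turning and 6.46 and 5.82 at breaker, and TM29 of the MADS family read 5.40 and 5.06 at turning and 7.11 and 7.15 at breaker. TCP11 fell most within its family, with 3.45 and 5.31 at turning and 7.85 and 8.37 at breaker, and the turning arrays differed widely. The ERF family was not lower throughout, since ERF7 read 8.36 and 8.53 at turning and 8.42 and 8.43 at breaker, and 15 TCP, 7 MYB and 6 WRKY genes had both means under the mark. MYB12, a regulator of flavonol synthesis, fell by 1.40 and lost its call under quantile and cyclic loess normalization and without breaker array 1.

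Of 49 cell wall genes 15 were lower, 2 were higher and 24 had both means under the mark. Apart from Cel2 the higher gene was the polygalacturonase PG2, with 10.3 and 10.3 at turning and 9.09 and 9.50 at breaker. The beta-galactosidase TBG6 read 4.21 and 3.98 at turning and 7.06 and 8.28 at breaker, and the xylosidase XYL2 read 2.74 and 2.53 at turning and 5.52 and 5.32 at breaker. Expansin EXP1, which loosens walls of ripening fruit, read 1.74 and 1.42 at turning, under the mark, and 4.30 and 5.13 at breaker. Of 8 genes that mark the progress of ripening, drawn in part from the same families, PG2 was higher and ACO1, loxC and TDR4 did not pass. The other 4, NAC-NOR, ACS2, Psy1 and EXP1, were lower. The call of PG2 was lost when only the turning and breaker arrays were fitted.

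Of 16 sugar and starch genes 8 were lower and none was higher, with a median log2 difference of -0.72. The cell wall invertase lin5 read 2.79 and 1.93 at turning and 4.87 and 5.90 at breaker, and the sucrose synthase gene LOC543961 read 4.22 and 4.41 at turning and 7.27 and 6.79 at breaker. GWD, a glucan water dikinase needed for starch breakdown, read 4.92 and 5.55 at turning and 7.29 and 7.26 at breaker. Of 7 hexokinase and fructokinase genes 4 were lower, HXK4, FRK2 and Frk1 with falls of 1.23 to 1.61 and hxk1 with a turning mean under the mark. The calls of the last 3 were each lost without one of the breaker arrays, and 2 were left without breaker array 2. Of 8 genes of the GABA shunt, which turns glutamate into succinate, 3 transaminases were lower and the succinic semialdehyde dehydrogenase SSADH was higher by 0.78, a call lost without either breaker array. GABA-TP1, the transaminase with the highest signal, read 6.41 and 6.28 at turning and 8.71 and 8.37 at breaker.

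Of 7 listed phenylpropanoid and flavonoid genes 4 were lower and none was higher. Outside this list, the cinnamoyl-CoA reductase-like LOC101264046 was higher by at least 2.62 on the log2 scale. LOC101243656, described as phenylalanine ammonia-lyase and also outside the list, had a log2 difference of -2.90. The chalcone synthase CHS1 read 1.86 and 2.87 at turning and 5.71 and 6.29 at breaker, whereas its homologue CHS2 read 8.01 and 8.02 at turning and 8.06 and 7.99 at breaker. The cinnamoyl-CoA reductase CCR1 and the flavanone hydroxylase F3H fell by 2.52 and 2.27 on the log2 scale. Of 12 ascorbate and glutathione genes 7 were lower and none was higher, among them GME1, an epimerase of ascorbate synthesis, with 2.69 and 3.27 at turning and 4.62 and 4.74 at breaker. The recycling enzymes MDHAR and DHAR1 fell by 1.09 and 1.22, and both calls were lost without breaker array 2. This list was sensitive to scaling, with 3 lower after quantile and 2 after cyclic loess normalization, and 4 and 3 were lower without breaker arrays 1 and 2. Of 9 oxidative stress genes the iron superoxide dismutase FESOD rose by 1.25 and the plastid copper and zinc enzyme SODCP.2 fell by 2.77, and of 11 lipid and cuticle genes 1 was higher (CD2) and 2 were lower, or 4 without breaker array 2.

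Of 8 ion transport genes 5 were lower, among them the sodium and proton exchangers sos1 and NHX2. NHX2 read 2.91 and 3.58 at turning and 5.72 and 5.59 at breaker, and sos1 read 3.63 and 3.73 at turning and 5.68 and 6.09 at breaker. Only 2 ion transport genes were lower after quantile and cyclic loess normalization, without either breaker array or without any one red ripe array, and 3 without turning array 1. Of 7 genes of Polycomb repression and RNA silencing 4 were lower, EZ1, MSI1, RdRP and LOC101247032 (the Argonaute AGO1), by 1.27 to 1.96 on the log2 scale, while FIE and SGS3 did not pass, and the call of MSI1 was lost after quantile normalization. Of 15 cell cycle genes 3 were lower and 11 had both means under the mark, and no call was left after cyclic loess normalization or without breaker array 1, with 1 left without breaker array 2, turning array 1 or any one red ripe array. Of 10 small GTPase and cytoskeleton genes 3 were lower (5 without turning array 2) and the Rab-type gene ypt2 was higher, with 7.36 and 7.51 at turning and 6.10 and 6.16 at breaker. The remaining lists had few changes. Of 3 histone genes 2 were lower, H1 and H2B-1, both lost without breaker array 2 or turning array 2. Of these, 1 was also lost without turning array 1 or any one pink or red ripe array. Of 9 defence genes 1 was lower (CHI3, lost without breaker array 2), and the Kunitz inhibitor LOC544001, which rose, is outside that list. None of 4 ubiquitin-conjugating enzymes passed.

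Of 12 carotenoid genes the desaturase gene pds was higher by 0.61, and Psy1 and dxs were lower by 1.13 and 0.59, and the calls of pds and dxs were lost without either breaker array, turning array 1 or red ripe array 1 or 2, and that of Psy1 without breaker array 2. Of 46 plastid-encoded genes 12 were lower and none was higher, and 36 had a lower turning mean. The share that passed as lower was not far from the 22.3% of all genes. Without breaker array 2 there were 7 lower, and after the medians of the arrays had been set equal 19 were. The largest of these falls were those of atpF, a subunit of the plastid ATP synthase, with 9.31 and 8.97 at turning and 10.8 and 10.9 at breaker, and of ndhI, with 9.06 and 8.72 at turning and 10.2 and 10.2 at breaker. The photosystem genes psaA and psbA differed by 0.05 and -0.09 and did not pass. The probe sets of rps7 and ycf1 hold the same values on all arrays, so these 46 genes stand for 45 measurements. Of 10 nuclear photosynthesis genes 2 were higher, among them LOC101264286, and 3 were lower: CAB4 read 1.99 and 2.21 at turning and 4.86 and 3.96 at breaker, opposite to LOC101267774.

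Markers of other tissues gave the following values. The only seed marker present, ABI3, was under the mark on every array, with a log2 difference of -0.10. Of 5 abscission zone markers 4 had both means under the mark, among them TAPG2 and TAPG4, and Cel1 fell, with 3.14 and 2.95 at turning and 6.99 and 5.16 at breaker. The mean signal over the 5 was 1.95 to 2.18 on the turning arrays and 2.19 to 2.60 on the breaker arrays. Among 3 epidermis markers CD2 was higher, the lipid transfer protein gene LOC101266080 was lower and ltpg1 did not pass, and their mean signal was 6.65 to 6.71 at turning and 6.60 to 6.79 at breaker. The sucrose transporter SUT1, the vascular marker, read 3.98 and 4.07 at turning and 7.21 and 6.23 at breaker, a fall of 2.69. Among 5 green tissue markers 2 were higher and 1 was lower, with a mean signal of 2.68 to 2.82 at turning and 2.25 to 2.52 at breaker. No marker of pericarp itself was used, and the part of tissue make-up in the falls was not tested.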

How the data were processed

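The deposited values are log2 signals, which the authors computed by RMA in Expression Console (Affymetrix). The Transcriptome Analysis Console 2.0 is listed as well in the submitters' notes. Replicates were not pooled, 0 columns were unused, and no raw intensities or detection calls were used. Stage means were estimated over all 9 arrays in R 4.3.3, using lmFit and eBayes of limma 3.58.1 without a trend (5 residual and 3.65 prior degrees of freedom). P-values were adjusted over 67795 probe sets by the Benjamini-Hochberg method. The fit was checked on simulated data.

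Genes were named from the array's annotation. All LOC identifiers and 730 of 897 other symbols matched RefSeq (SLM_r2.1). No coordinates are given, since the array's annotation names no assembly. Among called genes whose turning and breaker arrays did not overlap, the text names the 12 largest rises and 12 largest falls measured on both sides and up to 6 each that reach under 2.5, passing over genes without a description. This left out 81 larger rises and 16 larger falls measured on both sides, and 7 and 29 under the mark. Descriptions of LOC genes are RefSeq synonyms or those of the study's supplement, which was made from these samples. Up to 3 passed members per list and direction are also given, and other list members named were chosen after their values were seen. Members and lists were chosen with earlier results of these data known, and 11 of 47 lists were added after the values were seen. Replicate numbers do not pair the samples: replicate differences at turning and breaker correlated at -0.0003. Robust moderation used statmod 1.5.0.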

Additional observations from a re-analysis of the deposited data

How the results depend on the processing

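The small number of arrays limits the precision, and the spread was pooled over 4 stages. limma's array weights were 0.397 at turning and 2.21 at breaker, so the turning arrays varied more than the pooled spread allows for. Against 287 genes higher and 3581 lower at turning, the replicate block fit gave 281 and 3461, and leaving out each array in turn gave 220 to 405 higher and 2540 to 4153 lower, with a lone array assumed to vary like the other stages. In all of these leave-one-out fits 170 rises and 2115 falls were kept. Quantile normalization gave 823 higher and 2204 lower, cyclic loess normalization 713 and 2165, and no fold threshold 596 and 4750. The methods' test on 4 arrays called 231 and 2493 at an unadjusted p under the threshold, but 0 and 2 after Benjamini-Hochberg adjustment, so all 182 listed or named genes lost their call there. Median centring, the fit of turning and breaker alone, the low-signal filter, robust moderation, array weights and averaged probe sets kept both counts within 1.5 times. With a mark of 2 in place of 2.5, 16 rises and 300 falls reached under it, and with a mark of 3, 42 and 1324. Of 182 listed or named genes past the test, 112 kept their call in the other 17 settings, and RBR1 of the cell cycle list alone changed direction, with a log2 difference of 0.0311 after quantile normalization against -0.66.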
